A study of Mus musculus with 8 samples.

Results

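The 38 glycolysis and hypoxia response genes described here were followed in mouse neural stem cells from the subventricular zone, a germinal layer beside the lateral ventricle. They were chosen by symbol, and all 38 stand among the 45777 genes of the deposited count table. Of the 38, 22 belong to glucose uptake, glycolysis and the handling of pyruvate and lactate, and 16 to the hypoxia response. A filter on low counts kept 17644 genes of the table and 37 of the 38 members. The cells came from control mice, labelled WT, and from mice deficient in S1PR1, a receptor for the lipid sphingosine-1-phosphate, and were given ApoM-HDL or ApoM+HDL, high-density lipoprotein labelled for apolipoprotein M. Total RNA depleted of ribosomal RNA was sequenced in 8 libraries, 2 per combination of genotype and preparation. The sources used here give no deletion method, promoter, age, dose or duration of treatment, and they do not say whether the libraries of a pair came from separate cultures or animals. The p-values therefore measure only the spread between these libraries, which may be technical.

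Glycolysis turns glucose into pyruvate in the cytosol, and lactate dehydrogenase and the monocarboxylate transporters set how much carbon leaves the cell as lactate. When oxygen is scarce, prolyl hydroxylases stop marking HIF alpha subunits for destruction, and the stabilised HIF dimer binds short DNA elements at many glycolytic genes and at genes for blood vessel growth, mitochondrial turnover and collagen folding. Neural stem and progenitor cells are known for a high use of glycolysis compared with neurons.

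The table names its libraries by a letter for the genotype, a letter for the treatment and a number. C was read as control, and G as S1PR1-deficient by elimination. The labels do not say which preparation H or V stands for, so every treatment difference below is given by letter alone. The targeted gene did not separate the genotypes. S1pr1 stood at 25.4 and 23.2 CPM (counts scaled to a common library total) in CH, 20.8 and 16.0 in CV, 23.2 and 21.2 in GH, and 22.2 and 22.4 in GV. S1pr1 in libraries coded G against C differed by -0.13 on the log2 scale under H (95% interval -0.375 to 0.12; adjusted p = 0.71, edgeR) and by 0.28 under V (0.0314 to 0.532; adjusted p = 0.0948). The gene-level count therefore goes against a loss of the transcript in the libraries coded G, and which part of the gene was removed is not given in the sources used here. Within C, S1pr1 was higher under H than under V (log2 0.40, adjusted p = 0.0433, edgeR). Within G it was not (log2 -0.0048, adjusted p = 0.993). The call within C held in 9 of 15 alternative fits.

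Libraries held 39619305 to 45698186 counts, and the members took 0.740% to 0.795% of them. The summed level of 10 neural stem cell and radial glia markers was 5644 to 5796 CPM in C, 5204 to 5375 in GH and 4908 to 5089 in GV, although Gfap was close to 0 (0 to 0.852 CPM). The sum of 8 oligodendrocyte lineage markers ran from 1435 to 1528 CPM in CH, 1931 to 1955 in CV and 1653 to 1704 in G, almost all of it Olig1, Olig2 and Cspg4, while Sox10 and Mog had 2 counts each in all. Neuroblast markers summed to 156 to 184 CPM, mostly Cd24a (137 to 170), while Dcx reached at most 1.21. Ependymal markers summed to 16.3 to 23.6 CPM, mostly Foxj1 (12.3 to 18). Microglia markers summed to at most 0.30 CPM, endothelial markers to at most 4.48 and fibroblast markers to at most 0.224. Mural markers, mostly Acta2, summed to 5.50 to 8.43 CPM in CH and 0.926 to 1.87 elsewhere, while the mural marker Pdgfrb and the microglia markers Aif1 and Csf1r had 0 counts in all. In bulk RNA, fewer cells of a type and less RNA per cell cannot be told apart. The share of a small cytoplasmic RNA also differed, since 7SL took 3.13% to 3.72% of counts in C, 2.39% to 2.47% in GH and 1.49% to 1.64% in GV.

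The element bound by HIF has the core ACGTG or GCGTG. RefSeq promoters (GRCm38.p6) matched 34 of the 38 members, and 31 of these 34 (91.2%) held the core on either strand in the 250 bases before a start site. The same was true of 8235 of 17492 protein-coding genes (47.1%) and of 11226 of 27025 genes of all kinds (41.5%). A gene with several promoters counted if any held the core. Counted by promoter, the core lay in 38 of 49 for the members (77.6%) and in 12679 of 32851 promoters of genes of all kinds (38.6%). Promoters of the members were also richer in G and C, with a median of 62.8% against 55.6% for protein-coding genes. The members without a promoter in the table are Slc2a3, Epas1, Ndrg1 and Ero1l. The members were chosen for pathways at whose genes HIF is known to bind, so their high share is no independent result. A match is only a run of letters and no measured site. The stretches below are a choice from members whose level passed the test in at least 1 comparison. Each window was placed to hold as many cores as possible, so its count of cores does not describe the whole promoter. Windows of Pfkl, Aldoa, Eno1 and a second Ldha promoter (1 core each) and of Pfkp (2) are not printed. The Gpi1 promoter held 0 cores. Each printed stretch is 60 bases long, lies before an annotated start site and outside annotated exons, and reads 5′ to 3′ on the strand of its gene. Capitals mark the core. Because CACGTG reads the same on both strands, it holds a core on each, overlapping.

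Ldha, chr7:46845731-46845790, plus strand: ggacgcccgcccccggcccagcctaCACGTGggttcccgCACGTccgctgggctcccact
Bnip3, chr7:138909585-138909644, minus strand: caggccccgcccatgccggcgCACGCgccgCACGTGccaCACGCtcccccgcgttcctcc
P4ha1, chr10:59323121-59323180, plus strand: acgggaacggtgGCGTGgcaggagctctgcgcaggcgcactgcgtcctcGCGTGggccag
Pfkfb3, chr2:11502114-11502173, minus strand: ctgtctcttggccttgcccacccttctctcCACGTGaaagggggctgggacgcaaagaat
Gapdh, chr6:125165793-125165852, minus strand: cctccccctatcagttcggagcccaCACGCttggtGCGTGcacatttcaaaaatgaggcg
Hk2, chr6:82774477-82774536, minus strand: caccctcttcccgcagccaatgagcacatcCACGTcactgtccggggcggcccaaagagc
Slc16a1, chr3:104638434-104638493, plus strand: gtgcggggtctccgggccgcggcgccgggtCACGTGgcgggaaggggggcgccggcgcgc
Hif1a, chr12:73907702-73907761, plus strand: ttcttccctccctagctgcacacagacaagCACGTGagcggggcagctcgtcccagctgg

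The Ldha stretch held 3 cores and the Bnip3 stretch 4, while the Hk2 stretch held 1. As the values below show, Bnip3 and Slc16a1 were higher in GV than in CV, and Ldha, Gapdh and Hk2 lower. Of these, only Hk2 was still called in a fit with offsets for transcript length and GC share, given below. A core lay before 31 of the 34 matched members, and its part in these differences was not tested.

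Most members varied little across the 8 libraries. Of the 34 with a mean of at least 1 CPM, 29 had a highest library no more than 1.5 times the lowest. Their median ratio of highest to lowest was 1.28, and that of the 13820 genes with such a mean was 1.36, of which 68.7% stayed within 1.5. These 13820 genes were not matched to the members by level. Pkm, the last enzyme of the pathway, ran from 1964 to 2188 CPM, and Egln1, the main oxygen-sensing prolyl hydroxylase, from 69.0 to 75.9. The widest ranges among the 34 belonged to Pfkfb3 (18.2 to 32.5 CPM), which makes the activator of phosphofructokinase, to its paralogue Pfkfb4 (3.05 to 5.13) and to Hk2 (8.48 to 14.0). Slc16a3, the lactate exporter typical of glycolytic cells, was close to 0 at 0 to 0.476 CPM, and Ankrd37 and the collagen prolyl hydroxylase P4ha2 reached at most 1.15 and 0.606. Car9, a carbonic anhydrase widely used as a hypoxia marker, had 2 counts in all, both in CV library 1. A library at 0 allows a level of up to 0.0771 CPM (3 counts).

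**Figure D1:**
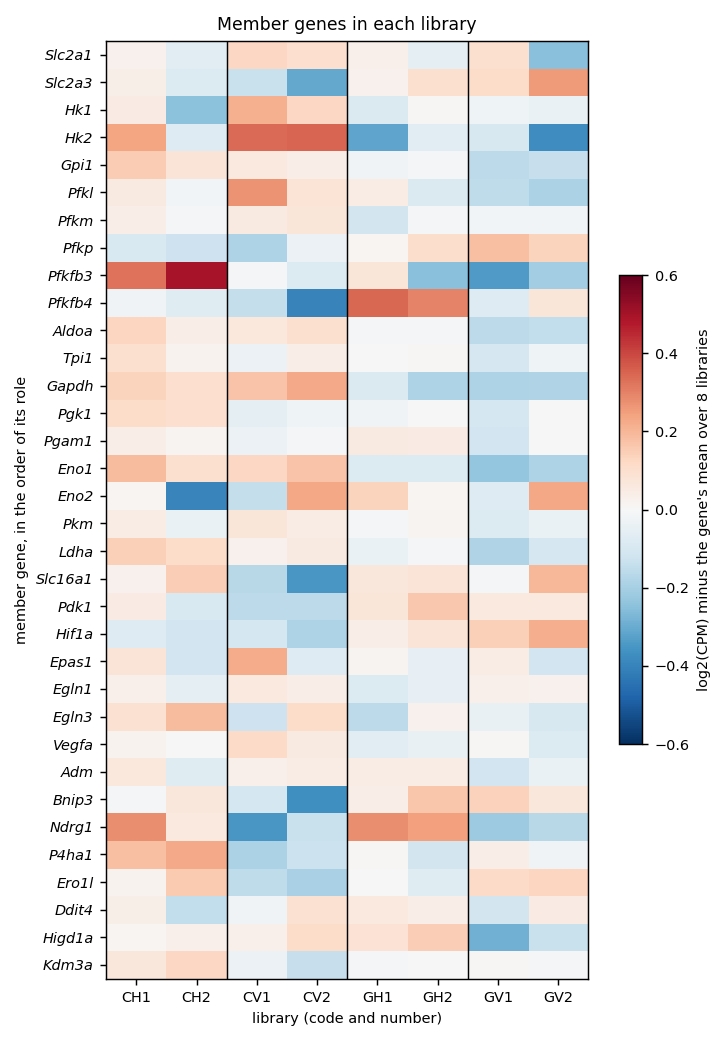
Log2 CPM of 34 members (rows, ordered by role) in each library (columns) minus the gene's mean over the 8 libraries; red is higher and blue lower, and the 3 tested members below a mean of 1 CPM are left out. Gapdh and Eno1 are redder in the C libraries, Hif1a in the G libraries, and rows such as Egln1, Vegfa and Pkm stay near white.

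Each difference was tested with edgeR's quasi-likelihood F test on all 8 libraries, with Benjamini-Hochberg adjustment over the 17644 genes and a threshold of 0.05. Of the 37 tested members, 16 passed in at least 1 of 5 comparisons, in 24 calls, and 21 passed in none. Members passed most often between G and C under V. There 14 of 37 passed (37.8%), 6 higher and 8 lower in GV, where 25.0% of all genes tested passed (11.6% higher and 13.4% lower). Scaled by library totals alone, 14 members passed as well, but 8 were higher and 6 lower, with Gpi1 and Ldha lost and Pdk1 and P4ha1 gained as higher. With 2 libraries against 2, codes often do not overlap: under V they did not for 27 of 37 members (73%) and for 61.4% of all genes. Of the 22 members of glycolysis and lactate handling 3 were higher and 7 lower, with a median log2 difference of -0.10, and of the 15 tested hypoxia members 3 were higher and 1 lower, with a median of 0.04. The median over all genes was -0.02. The comparisons of G with C under V and of H with V in C use the same CV libraries, so their values are not independent.

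Under V, 3 of the 8 enzymes from aldolase to pyruvate kinase were lower in G (37.5%), and the other 5 did not pass. Of all genes tested, 13.4% were lower. Gapdh, which oxidises glyceraldehyde 3-phosphate, stood at 545 and 566 CPM in CV and at 426 and 427 in GV. The libraries of each code lay close together and the codes far apart, and the level fell by 23.2% (log2 -0.38, SE 0.0552, adjusted p = 0.000643). Eno1, the enolase of most tissues, stood at 918 and 950.2 CPM in CV and at 718 and 741 in GV (log2 -0.36, SE 0.0532, adjusted p = 0.000741). Aldoa, which splits fructose 1,6-bisphosphate, stood at 708 and 725 CPM in CV and at 608 and 613 in GV (log2 -0.23, SE 0.0526, adjusted p = 0.00729). In each of these 3 genes both GV libraries lay below both CV libraries. Pkm stood at 2188 and 2144 CPM in CV and 1964 and 2020.0 in GV, which did not pass (log2 -0.12, 95% interval -0.226 to -0.0153, adjusted p = 0.0896). The values of Eno1, Pgk1 and Pgam1 are uncertain, because the table also lists the near-identical copies Eno1b (1149 to 1796 counts a library), Pgk1-rs7 (1791 to 2386) and Pgam1-ps2 (3754 to 4856), among which reads may have been split.

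The upper part of the pathway was mixed under V. Hk2, the inducible hexokinase, stood at 13.9 and 14.0 CPM in CV and at 10.3 and 8.48 in GV, and fell by 32.7% (log2 -0.57, SE 0.14, adjusted p = 0.0108). The phosphofructokinase genes did not move together. Pfkl, the liver form, stood at 37.0 and 32.4 CPM in CV and 27.6 and 26.9 in GV (log2 -0.35, SE 0.0866, adjusted p = 0.0113). Pfkp, the platelet form, went the other way, with 49.4 and 54.7 CPM in CV and 63.6 and 61.6 in GV (log2 0.27, SE 0.0727, adjusted p = 0.0182). Pfkm, the muscle form, stood at 136 and 138 CPM in CV and 129 in each GV library and did not pass (log2 -0.08, adjusted p = 0.343). The calls of Pfkl and Pfkp were each lost without CV library 1 and without 1 GV library (library 2 for Pfkl, library 1 for Pfkp). Gpi1, the isomerase between hexokinase and phosphofructokinase, stood at 519.8 and 513 CPM in CV and 447 and 453 in GV (log2 -0.20, SE 0.0524, adjusted p = 0.0156). The glucose transporter Slc2a3, at 14.6 and 12.9 CPM in CV and 17.2 and 19.1 in GV, was higher in G (log2 0.40, SE 0.103, adjusted p = 0.0134). Slc2a1, the transporter of most dividing cells, stood at 21.8 and 21.5 CPM in CV and at 21.4 and 16.8 in GV, so CV lay just above the higher GV library, and the GV libraries were wide apart (log2 -0.18, 95% interval -0.417 to 0.0596, adjusted p = 0.27).

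At the pyruvate branch, Ldha, which reduces pyruvate to lactate, stood at 540.1 and 550.5 CPM in CV and at 467 and 494 in GV (log2 -0.18, SE 0.0534, adjusted p = 0.0254). The Ldha call held in 6 of 15 alternatives, and was lost with library totals (adjusted p = 0.134) and without either CV library, either GH library or GV library 1 (adjusted p = 0.0542 to 0.143). Slc16a1, the monocarboxylate transporter that carries lactate in either direction, stood at 94.4 and 83.2 CPM in CV and 106 and 122 in GV, a rise of 28.1% (log2 0.36, SE 0.0819, adjusted p = 0.00767). Pdk1, the kinase that turns off pyruvate dehydrogenase, stood at 13.6 CPM in each CV library and 15.8 in each GV library. Those codes did not overlap, yet the difference did not pass (log2 0.22, 95% interval 0.00718 to 0.426, adjusted p = 0.124).

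Among the hypoxia members, the transcript of the HIF subunit itself was higher in G under V. Hif1a stood at 207 and 196 CPM in CV and at 246 and 259 in GV, a rise of 25.3% (log2 0.32, SE 0.0578, adjusted p = 0.00199). Epas1, the paralogous subunit, stood at 26.6 and 21.6 CPM in CV and 23.5 and 21.0 in GV, with overlapping codes (log2 -0.11, 95% interval -0.352 to 0.131, adjusted p = 0.525). Bnip3, which marks mitochondria for autophagy, stood at 14.9 and 12.4 CPM in CV and 17.7 and 16.8 in GV (log2 0.34, SE 0.108, adjusted p = 0.0384). Ero1l, the oxidase that drives disulfide formation in the endoplasmic reticulum, stood at 39.6 and 38.4 CPM in CV and 47.6 and 48.1 in GV (log2 0.30, SE 0.0737, adjusted p = 0.0116). Higd1a, a small protein of the mitochondrial inner membrane, went the other way, with 83.4 and 88.0 CPM in CV and 66.8 and 74.4 in GV (log2 -0.28, SE 0.0686, adjusted p = 0.0107).

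The count of members called under V hung on single libraries. It was 5 without CV library 2, where Gapdh, Eno1, Hif1a, Pfkl and Pfkp remained, and 9 without GV library 2. It lay between 10 and 15 without any other library. Other measures moved with the same contrast. The 7SL share and the summed stem cell markers were lower in GV than in CV, as given above. Of those 10 markers 4 were lower (Nes, Vim, Fabp7 and Hes1) and 2 higher (Slc1a3 and Sox9). The mitochondrial share of counts was 2.36% and 2.43% in CV and 3.46% and 3.43% in GV. The part of these measures in the members' differences was not tested. Of the 38 members, 14 share exon bases with a gene on the opposite strand, among them Gapdh, Gpi1, Pfkp, Aldoa, Hif1a, Bnip3 and Higd1a. The library kit marks strand, but whether strand was used in counting is not given in the sources used here. On the same strand, 3 members share exon bases with another gene, which strand cannot separate. These are Pkm (767 bases), Pfkm (341) and Hif1a (148).

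**Figure D2:**
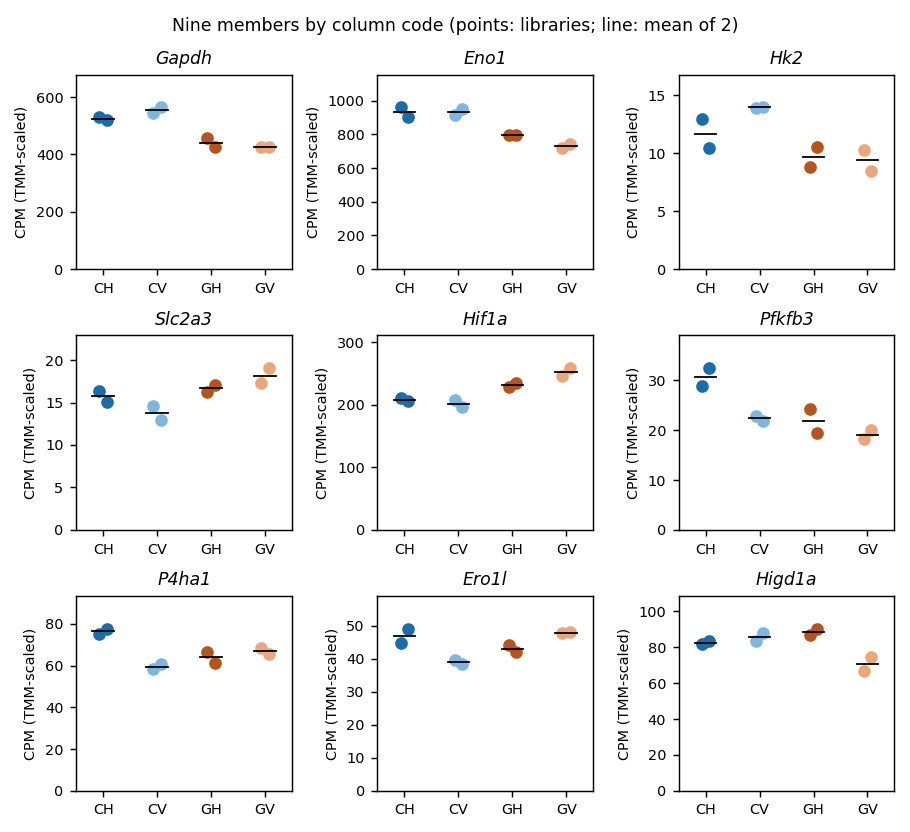
CPM of 9 called members in the 8 libraries by column code (points; the line is the mean of 2 libraries; each axis starts at 0). Gapdh, Eno1 and Hk2 are lower in GV than in CV, Slc2a3 and Hif1a higher, Pfkfb3 and P4ha1 peak in CH, and Higd1a is lowest in GV.

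Transcript length moved with the contrast under V across all genes. Over the 15858 genes with a known length, the median log2 difference of G minus C under V was -0.19 in the 3966 shortest (56 to 1596 bases) and 0.07 in the 3963 longest (4376 bases and more). The members that were lower included short transcripts, such as Gapdh with 1420 bases and Aldoa with 1549, and those that were higher included long ones, such as Hif1a with 4724, but Hk2 with 5513 was lower. GC share moved with it too, with a median log2 difference of 0.25 in the 3965 genes of lowest GC (29.6% to 45.6%) and -0.25 in the 3965 of highest (54.9% to 72.8%). The 4 tested members with the lowest GC share, Hif1a (41.3%), Bnip3 (41.6%), Ero1l (41.6%) and Slc16a1 (42.9%), were all higher. Of the 4 with the highest, Eno1 (57.4%) and Pfkl (57.1%) were lower, and Ddit4 (57.9%, log2 -0.07) and Pkm (57.7%, log2 -0.12) did not pass. A fit with an offset per library for length and GC, chosen after seeing the length trend, called 5 members and 1960 genes. It retained Slc2a3 (log2 0.37, adjusted p = 0.0299) and Hk2 (log2 -0.56, adjusted p = 0.0175). In that fit Gapdh differed by -0.07 (adjusted p = 0.345), Eno1 by -0.11 (adjusted p = 0.0511) and Hif1a by 0.0053 (adjusted p = 0.967), and the other members lost were Gpi1, Pfkl, Pfkp, Aldoa, Ldha, Slc16a1, Bnip3, Ero1l and Higd1a. Tpi1, Pgam1 and Pkm, which had not passed, became higher in G, by 0.14, 0.13 and 0.11. Whether Gapdh, Eno1, Aldoa and Hif1a passed between GV and CV therefore depended on taking out the length and GC trends. The source of these trends was not tested. The Slc2a3 and Hk2 calls, retained with the offsets, hung on single libraries. Without the offsets, both were lost on leaving out CV library 2 (log2 0.32 and -0.57) or GV library 2 (log2 0.33 and -0.44).

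**Figure D3:**
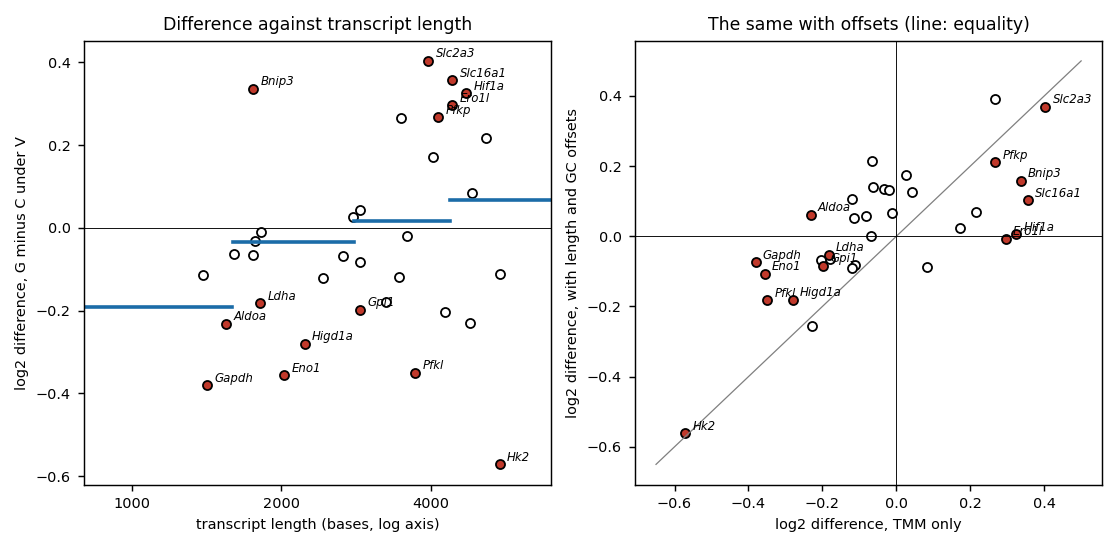
Left, log2 difference of G minus C under V against transcript length (log axis) for 34 members with a mean of at least 1 CPM, with called members in red and named, and the median of all genes in each of 4 length classes as blue lines. Right, the same difference with TMM scaling only (x) and with length and GC offsets (y); Hk2 and Slc2a3 stay near the line of equality, while Gapdh, Eno1 and Hif1a move toward 0.

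Under H, 2 of 37 members differed between G and C (5.41%), both lower in G, where 1.81% of all genes passed. Gapdh stood at 531 and 519.6 CPM in CH and at 456 and 426 in GH, a level that fell by 16.1% (log2 -0.25, SE 0.0552, adjusted p = 0.0399). Pfkfb3 stood at 28.9 and 32.5 CPM in CH and at 24.3 and 19.4 in GH, and fell by 28.9% (log2 -0.49, SE 0.11, adjusted p = 0.0429). In both genes the GH libraries lay below the CH libraries, but the codes did not overlap for 22 of 37 members (59.5%) and 45.8% of all genes. Eno1 lay next to the threshold, at 963 and 903 CPM in CH and 797 and 796 in GH (log2 -0.23, adjusted p = 0.0523). Hif1a, at 212 and 206 CPM in CH and 229 and 235 in GH, did not pass (log2 0.16, 95% interval 0.0295 to 0.281, adjusted p = 0.243). Both calls were lost on leaving out any single CH, CV or GH library, while without either GV library 3 members passed. With length and GC offsets 5 members and 654 genes passed. The members were Gapdh, Pfkfb3, Eno1, Ldha and P4ha1, all lower in G. Markers called in the same contrast were Acta2 (log2 -3.11, adjusted p = 0.000432), Nes (-0.28, 0.0396) and Cspg4 (0.35, 0.0381), and their part in these differences was not tested.

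Between H and V in C, 4 of 37 members passed (10.8%), all higher in H, where 10.7% of all genes passed. Pfkfb3 stood at 28.9 and 32.5 CPM in CH and at 22.9 and 21.8 in CV, a rise of 37.4% (log2 0.46, SE 0.11, adjusted p = 0.0225). Slc16a1 stood at 108 and 118 CPM in CH against 94.4 and 83.2 in CV (log2 0.35, SE 0.082, adjusted p = 0.022). P4ha1, the catalytic subunit of the enzyme that hydroxylates collagen prolines, stood at 75.1 and 77.6 CPM in CH and at 58.1 and 60.6 in CV (log2 0.36, SE 0.0678, adjusted p = 0.00724). Ero1l stood at 44.6 and 49.1 CPM in CH and at 39.6 and 38.4 in CV (log2 0.26, SE 0.0738, adjusted p = 0.0404). In all 4 genes both CH libraries lay above both CV libraries, but the codes did not overlap for 27 of 37 members (73%) and 54.1% of all genes. Among the core glycolytic enzymes, Gapdh stood at 531 and 519.6 CPM in CH against 545 and 566 in CV (log2 -0.08, adjusted p = 0.407) and Eno1 at 963 and 903 against 918 and 950.2 (log2 -0.0020, 95% interval -0.117 to 0.113, adjusted p = 0.989). Pgk1, at 566 and 564 CPM against 504.5 and 516, did not pass (log2 0.15, adjusted p = 0.106), nor did Hk1 (log2 -0.26, adjusted p = 0.067), though DESeq2 called both (adjusted p = 0.0242 and 0.0236). The count of members called was 0 without CH library 2, 0 without CV library 2 and 1 without CV library 1. With length and GC offsets, 7 members and 1352 genes passed. Pfkfb3 and P4ha1 were among these members (adjusted p = 0.0219 and 0.015), whereas Slc16a1 and Ero1l no longer passed (0.0854 and 0.388). Gpi1, Aldoa, Tpi1, Pgk1 and Eno1 were then called higher in H. Over all genes the median difference ran from 0.15 in the lowest GC class to -0.16 in the highest. The mural marker Acta2 was higher in CH as well, and the oligodendrocyte lineage markers lower, as given above. Their part in these differences was not tested.

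Between H and V in G, 1 of 37 members passed (2.7%), where 1.28% of all genes passed. Higd1a stood at 86.7 and 90.4 CPM in GH and at 66.8 and 74.4 in GV, a rise of 25.5% (log2 0.33, SE 0.0686, adjusted p = 0.0407). Its codes did not overlap, as for 18 of 37 members (48.6%) and 47.4% of all genes. The call was lost on leaving out any single library other than GV library 2. With length and GC offsets it was lost as well. Pfkfb3, called between H and V in C, differed here by 0.20 (95% interval -0.0467 to 0.438, adjusted p = 0.457).

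**Figure D4:**
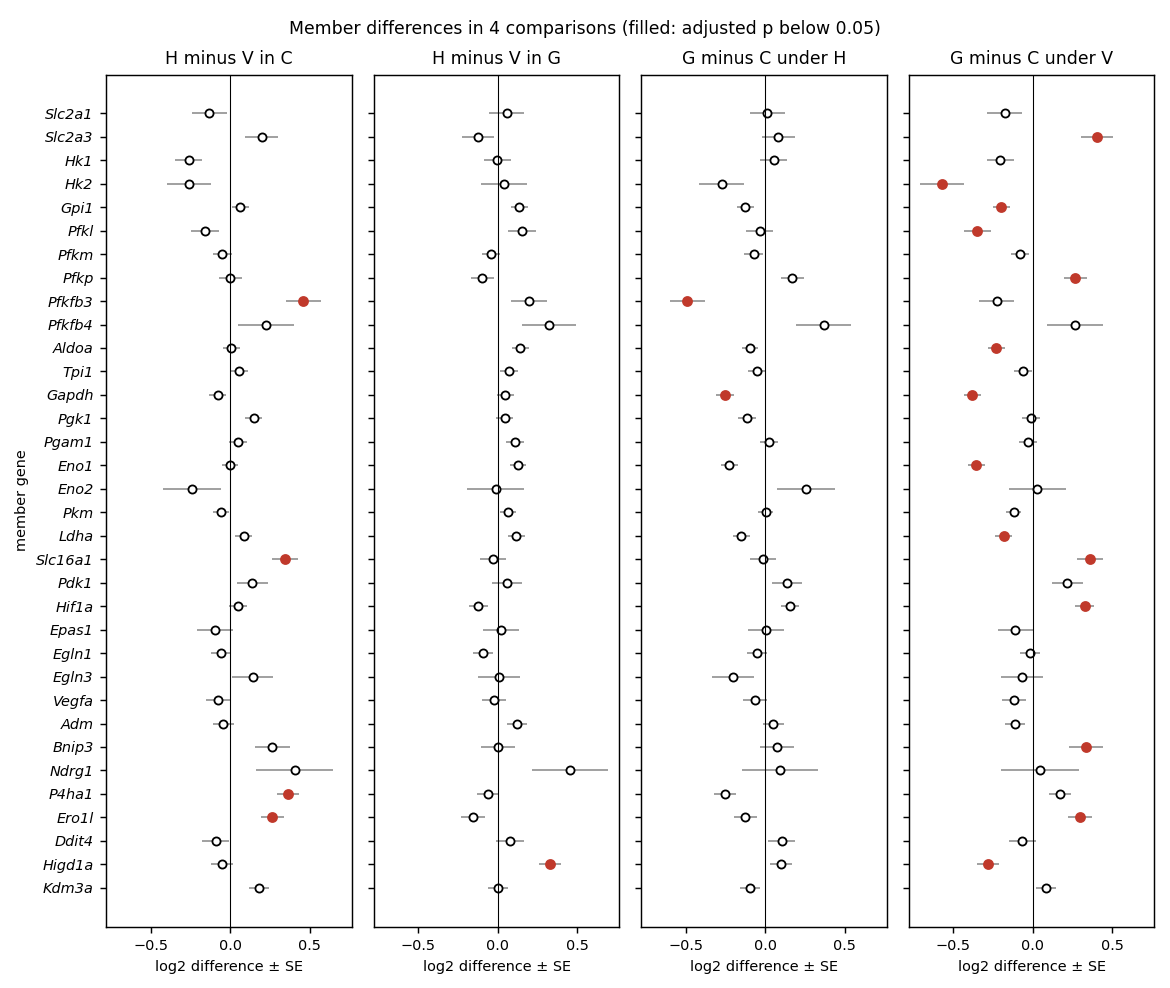
Log2 difference (x, points) with its standard error (bars) for 34 members in 4 comparisons (panels); filled red points have an adjusted p below 0.05. The red points number 4, 1, 2 and 14 from left to right, and those under V fall on both sides of 0.

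The H against V difference itself differed between G and C for 3 of 37 members (8.11%), where 7.35% of all genes passed. P4ha1 was higher in H by 0.36 in C and differed by -0.06 in G (interaction log2 -0.43, SE 0.0958, adjusted p = 0.0247). In its libraries, CH alone was high, at 75.1 and 77.6 CPM, while the other 6 lay between 58.1 and 68.3. Ero1l was higher in H by 0.26 in C and differed by -0.16 in G (interaction log2 -0.42, SE 0.104, adjusted p = 0.0336), with CV the lowest code. Higd1a had the opposite pattern, with -0.05 in C and 0.33 in G (interaction log2 0.38, SE 0.0968, adjusted p = 0.0369), and GV alone was low. For Pfkfb3, at 0.46 in C and 0.20 in G, the interaction did not pass (log2 -0.26, 95% interval -0.603 to 0.0763, adjusted p = 0.336), so the response is not shown to differ between the genotypes. The count called was 0 without CH library 2, either CV library or either GH library. It was 1 without GV library 1, where Slc16a1 passed and these 3 did not, and 0 with length and GC offsets.

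The 21 tested members that passed in no comparison include several common readouts of HIF activity. Vegfa, the vascular growth factor, stood at 30.7 and 30.3 CPM in CH, 32.8 and 31.4 in CV, 28.8 and 29.3 in GH, and 30.5 and 28.6 in GV. Its difference between G and C under V was -0.12 with a 95% interval of -0.283 to 0.0437. Egln3, the prolyl hydroxylase that HIF induces, stood at 9.11 and 9.74 CPM in CH, 7.84 and 9.23 in CV, 7.66 and 8.71 in GH, and 8.29 and 8.0 in GV, with every code overlapping at least 1 other. Ddit4, an inhibitor of mTORC1 signalling induced by hypoxia and other stresses, stood at 39.0 and 34.4 CPM in CH, 37.5 and 40.6 in CV, 39.6 and 39.1 in GH, and 35.3 and 39.4 in GV. Its interval under V was -0.253 to 0.121. Adm, the vasodilator peptide adrenomedullin, ranged from 91.5 to 103 CPM and the histone demethylase Kdm3a from 76.1 to 91.3. Ndrg1 was low, with 2.30 and 1.97 CPM in CH, 1.49 and 1.73 in CV, 2.30 and 2.25 in GH, and 1.63 and 1.69 in GV. All 4 H libraries of Ndrg1 lay above all 4 V libraries, yet neither difference passed: H minus V was 0.40 in C (95% interval -0.123 to 0.932, adjusted p = 0.331) and 0.45 in G (-0.0695 to 0.977, adjusted p = 0.417). Slc16a3 stood at 0.10 and 0 CPM in CH, 0.257 and 0.228 in CV, 0 and 0.476 in GH, and 0.353 and 0.143 in GV, too low for any comparison.

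Other genes of the same pathways were called in both directions. Of 28 tested genes of glycolysis and pyruvate handling outside the members, 2 were higher and 3 lower in G under V (17.9%, against 25.0% of all genes), and 3 were higher and 2 lower in H in C (17.9%, against 10.7%). Pfkfb2, another regulator of phosphofructokinase, was higher in both (log2 0.42, adjusted p = 0.00208, and 0.26, adjusted p = 0.0493), with 33.1 to 34.6 CPM in CV against 38.8 to 45.7 in the 6 other libraries. Pcx, which carboxylates pyruvate to oxaloacetate, was lower in both (log2 -0.41, adjusted p = 0.00461, and -0.51, adjusted p = 0.00475), with 52.0 and 55.9 CPM in CV against 35.9 to 43.0 elsewhere. Of 41 tested hypoxia genes outside the members, 7 were higher and 4 lower in G under V (26.8%, close to the 25.0% of all genes), and 4 were higher and 5 lower in H in C (22%, against 10.7%). Tfrc, the receptor for iron-loaded transferrin, rose in both (log2 0.51, adjusted p = 0.000359, and 0.35, adjusted p = 0.00724). Plod2, a collagen lysyl hydroxylase, had the pattern of P4ha1, with 76.6 and 79.4 CPM in CH and 50.9 to 61.0 elsewhere (log2 0.57 for H minus V in C, adjusted p = 0.000957). Plod1 and Loxl2, of the same list, went the other way in that comparison (log2 -0.40, adjusted p = 0.0109, and -0.95, adjusted p = 0.00215). Mif, a cytokine-like tautomerase, had the pattern of Higd1a, with 128 and 139 CPM in GV and 168 to 207 elsewhere (log2 -0.59 for G minus C under V, adjusted p = 0.000188). The likeness of these patterns was seen after the values were known and was not tested. Calls of these genes outside the members were not checked with the length and GC offsets or with single libraries left out.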

How the data were processed

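Gene expression was measured by RNA-seq in 8 libraries, 2 per column code. Per the file headers, the deposited table holds read counts, and the 16 columns of FPKM and TPM beside them were not used. Per the submitters' processing notes, the authors worked on the mouse build GRCm38 (mm10) with HISAT2 2.1.0 and StringTie 2.1.3b, after Trimmomatic and bcl2fastq 2.20.0. How strand was used in counting is not stated there. The whole-number counts deposited by the authors were not changed. Each library's total of 39619305 to 45698186 counts sets its precision, and limits for a gene at 0 (3 counts) cover counting error only.

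Genes were filtered with filterByExpr (at least 10 counts, 15 in total) and scaled by TMM (factors 0.976 to 1.05). They were fitted in edgeR 4.0.16 (R 4.3.3) with 1 mean per code and 4 residual degrees of freedom. Adjusted p-values come from its quasi-likelihood F test with Benjamini-Hochberg adjustment over all genes. Those given for DESeq2 come from that program's own test. CPM values use TMM-scaled totals. No row was blank or a summary row. Named genes are all members past the threshold plus fixed representatives of each role. Outside the members, up to 6 genes a list with the lowest adjusted p were named. Plod1 and Loxl2 were added because they went against Plod2. The members and lists were chosen with earlier results of these data known. Replicate libraries differed by more than sampling noise (chi-square of 5.4 to 14.5 per gene). The fit was tested on simulated data. Alternatives were RLE factors, library totals, no filter, DESeq2 1.42.0, the replicate number as a block, the compared libraries alone, each library left out, and, chosen after seeing the data, offsets for trends of log2 count on transcript length and GC share. Lengths were those of the longest GENCODE transcript, found through RefSeq links for 14140 of the 15858 genes and by symbol for the rest. All 37 tested members were found through RefSeq links. Tested genes without a known length were given no correction for these trends.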

Additional observations from a re-analysis of the deposited data

Results flagged for a closer look

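The H against V difference of 3 members differed between G and C by a test of the interaction in edgeR (8.11% of the 37 tested, close to the 7.35% of all genes, and 0 with length and GC offsets). The differences of differences were -0.4263 on the log2 scale for P4ha1, -0.4209 for Ero1l and 0.3792 for Higd1a, with the adjusted p-values and leave-one-out counts given in the results. Over the 38 members, the 4 libraries of each genotype, with S1pr1 added, made 78 groups of 4, and in 5 of them 1 library lay far from the other 3 (Dixon's ratio of the gap to the range, above its 95% critical value). Chance alone flags about 5% of such groups. Each group of 4 spans both treatment codes. Among the control libraries it was Car9, at 0.05141 CPM in CV library 1 (2 counts) and 0 in the others. Among those coded G it was Pfkm at 121.4 CPM and Gapdh at 455.8 CPM in GH library 1, Pdk1 at 16.97 CPM in GH library 2, and Ddit4 at 35.3 CPM in GV library 1.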

How the results depend on the processing

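Leaving out 1 library at a time, the genes called ranged from 255 to 2169 for H minus V in C, 8 to 843 for H minus V in G, 45 to 415 for G minus C under H, 1950 to 4444 for G minus C under V and 56 to 1450 for the interaction. The members called ranged from 0 to 5, 0 to 1, 0 to 3, 5 to 15 and 0 to 3 in that order. With length and GC offsets, chosen after seeing the data, the members called were 7, 0, 5, 5 and 0. The genes called were 1352, 26, 654, 1960 and 357 in the same order. Under these offsets, where a call was involved before or after, the log2 difference turned for Eno1 in H minus V in C (0.1363), and for Aldoa (0.0609), Tpi1 (0.1396), Pgam1 (0.1347), Pkm (0.1057) and Ero1l (-0.007419) in G minus C under V; the cause was not tested. A further 38 of the 185 member differences changed sign with no call involved. In H minus V in G, genes called were 137 with library totals, 575 without the filter, 668 with DESeq2 and 31 with only the compared libraries, and members called were 0 with RLE factors, 0 with library totals and 0 with only the compared libraries. In G minus C under H, genes called were 552 without the filter and 567 with DESeq2, and members called were 0 with library totals, 4 with DESeq2 and 1 with only the compared libraries. DESeq2 called 7 members in H minus V in C and 2022 genes for the interaction. Scaling by library totals alone put 2928 of 4467 called genes higher in G under V, against 2051 of 4408 with TMM. DESeq2 retained 24 of the 24 member calls, RLE factors 23 and library totals 19.

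Libraries with the same number did not deviate together (correlations of -0.046 to 0.01 over 17644 genes), so the numbers are not known to pair the samples. With the replicate block, members called were 3, 1, 0, 13 and 2 in the order above, genes called were 137 for H minus V in G and 203 for G minus C under H, and the calls lost were Ero1l in H minus V in C and in the interaction, Pfkfb3 and Gapdh in G minus C under H, and Bnip3 in G minus C under V.

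With 2 libraries a code, 4 residual degrees of freedom and counts near 0 for Slc16a3, P4ha2, Ankrd37 and Car9, differences of these 4 genes could not be resolved.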
